A study of Chrysanthemum x morifolium with 40 samples.

Results

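The comparison of EWT with CK roots at 3 h of waterlogging rests on 8 of the 40 RNA-seq libraries of the series, 4 of each cultivar, taken by the cultivar and time point in their labels. EWT (Enhanced Waterlogging Tolerance) and CK ('zaoxiaoyangju') are tea chrysanthemums of the 'Hangju' group of Chrysanthemum × morifolium. The study describes EWT as tolerant of waterlogging and CK as the sensitive conventional cultivar. Seedlings 8 weeks old were flooded until water stood 2 cm over their upper leaves, and roots were taken at 3 h. The other 32 libraries cover unflooded roots (0 h), longer flooding (12 h and 24 h) and a 24 h flood followed by 3 h of reoxygenation (24_3 h). The study states that both cultivars were kept by propagation from cuttings. Whether the sequenced seedlings of a cultivar were clones of each other is not stated. How far the genomes of the cultivars differ was not measured here. No unflooded roots were sampled at 3 h, so waterlogging and time of day cannot be told apart in any change between 0 h and 3 h. The labels and the study's methods give different growth temperatures and day lengths.

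Flooded roots run short of oxygen, because gases diffuse far more slowly in water than in air. In Arabidopsis, plant cysteine oxidases use oxygen to mark group VII ethylene response factors (ERFs) for breakdown, and when oxygen falls these factors persist and switch on genes of fermentation, sugar breakdown and hemoglobin. Ethylene is trapped in flooded tissue and shapes later responses such as aerenchyma and adventitious roots. Chrysanthemum × morifolium is polyploid, so most of these proteins have many gene copies. A gene is named here by the authors' match to a protein of another species, which does not show that it has the same role.

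The 4 CK libraries at 3 h held 5567319 to 6716210 fragments on genes and the 4 EWT libraries 8147779 to 9729533, so the depths of the cultivars did not overlap. Expression was deposited as FPKM (fragments per kilobase of gene, scaled by a size for each library). That size was not the count of fragments on genes, and at 3 h it was 1.044 to 1.216 times that count. In all 40 libraries it was proportional to a size factor, the median over genes of a library's counts relative to those of all libraries. Over the 89517 genes tested, libraries of 1 cultivar correlated at 0.886 to 0.923 on the log2 scale and libraries of different cultivars at 0.632 to 0.682. The cultivar labels were checked with genes chosen from the 0 h libraries alone. Of 1258 genes found at 0 h in EWT and not in CK, the EWT libraries at 3 h held fragments of 96.7% to 99.0% and the CK libraries of 6.20% to 8.66%. For 970 genes found at 0 h in CK and not in EWT, these shares were 4.95% to 5.98% in EWT and 96.0% to 97.2% in CK. All 8 libraries at 3 h thus followed their labels. Outside 3 h, EWT 24_3 h replicates 1 and 2 stood apart: they held fragments of 741 and 608 of those 970 CK genes, against at most 59 in every other EWT library. These 2 libraries enter the 3 h comparison only through the shared estimate of spread, and in the test of EWT against CK at 3 h 33314 genes were called without them, in place of 33389.

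Root markers were present in all 8 libraries, with a summed FPKM of 175 to 269 in CK and 226 to 479.5 in EWT for 109 genes of the nitrate, ammonium, SHORT-ROOT, SCARECROW and Casparian strip lists. SCARECROW itself was low (0.920 to 2.67 in CK, 2.85 to 5.55 in EWT). The 229 green shoot markers summed to 76.85 to 93.6 in CK and 97.4 to 152 in EWT, which did not overlap, and 82 of them were at 0 in all 8 libraries. Of 81 green markers tested, 12 were called higher in EWT and 4 in CK (14.8% and 4.94%), below the 19.5% and 17.8% of all genes. Their part in the results was not tested. EWT replicate 3 had the highest sums of both marker sets (479.5 and 152). In bulk roots, fewer cells of a type and less RNA per cell cannot be told apart.

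At 3 h, 33389 of 89517 genes tested differed between EWT and CK, or 37.3%. A gene was called when limma's unadjusted p was at most 0.05 and the fold change at least 2, the thresholds of the study. Of these, 17478 genes were higher in EWT (19.5% of those tested) and 15911 were higher in CK (17.8%). The split leaned on the scaling: EWT against CK at 3 h gave 16946 and 16948 when libraries were scaled to all counted fragments, and 17892 and 18277 with voom on recovered fragments. With Benjamini-Hochberg adjusted p of at most 0.05 in place of the unadjusted p, limma called 15402 and 14129. Differences of at least 16-fold were called for 2146 genes toward EWT and 2508 toward CK. The median difference over all genes tested was 0.06 on the log2 scale.

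Most of these differences were already there before flooding. At 0 h, in 8 other libraries, 16932 genes were called higher in EWT (18.9%) and 13871 higher in CK (15.5%). Of the genes called higher in EWT at 3 h, 64.7% were called higher in EWT at 0 h, and of those higher in CK 60.5% were called that way at 0 h. Calls in opposite directions at the 2 times were few, 141 genes that went from CK to EWT and 138 from EWT to CK. Across genes, the 0 h and 3 h differences correlated at r = 0.80, and genes are not independent replicates. At each of the other 4 time points, 7935 of the EWT genes and 6373 of the CK genes kept their call, whereas 1477 and 1712 were called at 3 h alone. These counts use the 24_3 h calls, whose EWT means include replicates 1 and 2, the libraries with fragments of many CK genes. The counts were not repeated without those libraries, so the EWT and CK numbers cannot be compared directly.

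**Figure D1:**
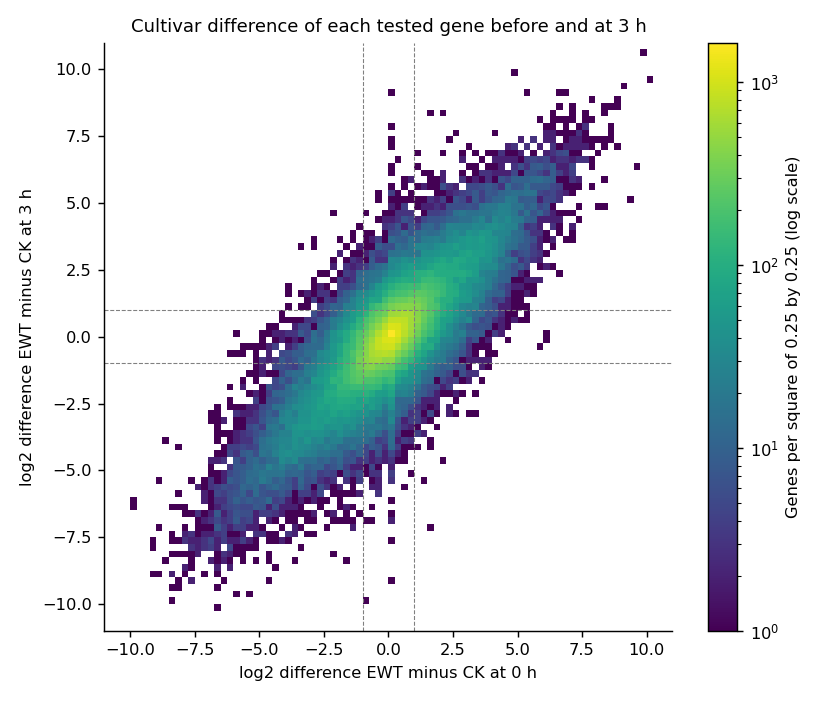
log2 difference of each tested gene between EWT and CK at 0 h (horizontal axis) and at 3 h (vertical axis), on the log2(FPKM + 0.1) scale. Colour gives the number of genes per square on a log scale and dashed lines mark a 2-fold difference; the genes lie along the rising diagonal (r = 0.80).

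The change of the cultivar difference from 0 h to 3 h was tested as an interaction in the same model. It was called toward EWT for 5901 genes (6.59%) and toward CK for 6484 (7.24%), or 2476 and 2041 genes with adjusted p, so that which cultivar had more shifts turned with the threshold. This test is the one used below wherever a difference is said to have shifted. The 3 h difference and the shift share the 3 h libraries, so their values are given side by side and not counted as separate support.

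The summed genes of ethanol fermentation did not separate the cultivars at 3 h. Pyruvate decarboxylase makes acetaldehyde from pyruvate and alcohol dehydrogenase reduces it to ethanol. The summed FPKM of 47 pyruvate decarboxylase genes was 9305, 8311, 8699 and 6309 in CK and 7414, 7459, 8290 and 8506 in EWT at 3 h. These ranges overlapped, with means of 8156 ± 1297 in CK and 7917 ± 563 in EWT (SD, n = 4), and at 0 h the means had been 82.35 ± 13.05 and 107 ± 17.2. For 33 alcohol dehydrogenase genes the sum was 5542 to 8296 in CK and 7033 to 8225 in EWT. L-lactate dehydrogenase, the other route for pyruvate, summed to 464 to 801 in CK and 502 to 554 in EWT, and none of its 6 genes was called.

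The leading copies overlapped between the cultivars. Pyruvate decarboxylase 1 (evm_TU_scaffold_535_88, a match to pea, chromosome 12, 115816953 to 115819862) had FPKM of 2336, 2231, 2069 and 1519 in CK and 1373, 1465, 1600.0 and 1546 in EWT. The groups overlapped through CK replicate 4, the difference was -0.43 ± 0.20 (log2, SE) and limma's adjusted p was 0.091. It was 0.035 when that library was left out, up to 0.22 without another one (CK replicate 1), and 0.019 to 0.16 under other settings. Alcohol dehydrogenase 1 (evm_TU_scaffold_1473_324, a match to potato) had 1649, 1541, 1688 and 1221 in CK and 1522, 1462, 1656 and 1532 in EWT. Its difference at 3 h was 0.03 ± 0.23, although CK had been higher at 0 h (log2 difference -1.14, adjusted p 0.00015).

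Some smaller copies differed widely. Alcohol dehydrogenase 1 evm_TU_scaffold_6154_52 (a match to rice, chromosome 26) had FPKM of 34.8, 31.8, 41.9 and 26.1 in CK and 0.438, 0.130, 0.210 and 0.389 in EWT. CK was thus 115-fold higher (log2 difference -6.49 ± 0.59, limma adjusted p 2.6e-11), while at 0 h no library exceeded 0.547. The shift toward CK had adjusted p 0.00010, but 0.17 with a pseudocount of 0.01. A pyruvate decarboxylase 4 match, evm_TU_scaffold_964_55, had 5.21, 8.34, 4.81 and 4.68 in EWT and no fragment in CK, a level at least 28.1-fold higher in EWT given a limit of 3 fragments over the 4 CK libraries. Over the 82 tested genes of fermentation and alanine synthesis, 11 were called higher in EWT and 17 in CK (13.4% and 20.7%, against 19.5% and 17.8% of all genes).

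**Figure D2:**
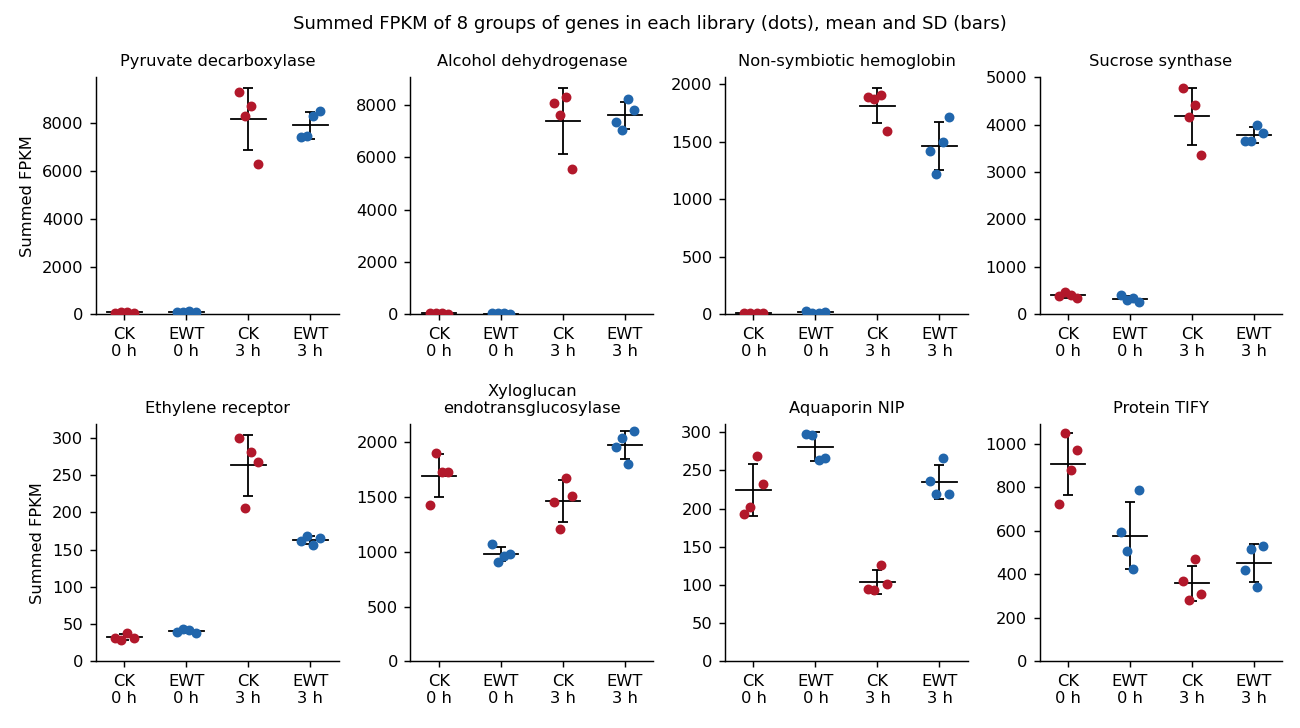
Summed FPKM of 8 groups of genes in each of the 16 libraries at 0 h and 3 h (dots, CK red, EWT blue), with the mean and SD of each group as bars. Pyruvate decarboxylase and alcohol dehydrogenase overlap between the cultivars at 3 h, whereas ethylene receptors lie higher in CK and xyloglucan endotransglucosylases and NIP aquaporins higher in EWT.

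Oxygen sensing and hemoglobin genes followed the same course. Non-symbiotic hemoglobins, which scavenge nitric oxide in oxygen-poor tissue, summed to 1885, 1872, 1901 and 1587 in CK and 1421, 1214, 1500 and 1713 in EWT, from means of 11.7 and 18.1 at 0 h. The leading copies, evm_TU_scaffold_415_128 and evm_TU_scaffold_10817_181, both matches to tomato hemoglobin 2, overlapped between the cultivars, with limma adjusted p of 0.67 and 0.47. A lesser copy, evm_TU_scaffold_644_274, was 15.6-fold higher in EWT: it had 21.2, 17.1, 40.1 and 22.8 there and 1.73, 2.04, 1.34 and 1.38 in CK (adjusted p 1.0e-05). This copy differed before flooding too (log2 difference 4.53 at 0 h).

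Plant cysteine oxidases summed to 726 to 1008 in CK and 735 to 822 in EWT. The RAP2-2, RAP2-3 and RAP2-12 factors, members of group VII in Arabidopsis, summed to 856 to 1198 and 832 to 990. Another group VII match stood apart. ERF071 (evm_TU_scaffold_1573_287, chromosome 13), whose Arabidopsis match is hypoxia responsive, had 542, 496, 527 and 432 FPKM in CK and 171, 215, 226 and 226 in EWT at 3 h. The groups did not overlap and CK was 2.38-fold higher (log2 difference -1.26 ± 0.22, adjusted p 1.5e-05). Before flooding the gap had been wider, 6.95 to 25.8 in CK and 1.37 to 2.20 in EWT, and the shift toward EWT was 1.63 ± 0.31 (adjusted p 0.00080). Of the 46 genes tested on the list of oxygen sensing and hemoglobin genes, 7 were called higher in EWT and 9 in CK (15.2% and 19.6%, near the 19.5% and 17.8% of all genes).

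Sucrose synthase, which splits sucrose at low cost in ATP and feeds glycolysis under hypoxia, showed copies that differed in opposite directions within similar totals. All 37 copies together had 3361 to 4770 FPKM in CK and 3654 to 4001 in EWT. The copy on chromosome 1 (evm_TU_scaffold_6916_24, 422644 to 427029) had 1045, 931, 1035 and 718 in CK and 1789, 1660.0, 1922 and 1832 in EWT. It made up 47.6% of the EWT total and 22.3% of the CK total, and was 1.93-fold higher in EWT (log2 difference 0.96 ± 0.22, adjusted p 0.00056). The copy evm_TU_scaffold_3531_14, placed on an unanchored scaffold, had 1629, 1443, 1576 and 1139 in CK and 621, 589, 664 and 625 in EWT, and was 2.31-fold higher in CK (adjusted p 8.2e-06). Both are matches to the same carrot isoform, and nothing in the labels or methods says how reads that match several copies were assigned.

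Glycolytic genes moved from EWT toward CK between 0 h and 3 h. At 0 h, 80 of the 319 glycolytic genes tested were called higher in EWT and 43 in CK, and at 3 h 60 were called higher in EWT and 73 in CK. The 3 h shares were 18.8% and 22.9%, beside 19.5% and 17.8% of all genes. The difference shifted toward CK for 40 genes and toward EWT for 10 (12.5% and 3.13%, against 7.24% and 6.59% of all genes), or 20 and 2 with adjusted p. The gene with the highest level had no called shift: cytosolic glyceraldehyde-3-phosphate dehydrogenase evm_TU_scaffold_9671_113 had 926, 957, 756 and 639.5 FPKM in CK and 1212, 1318, 1611 and 1355 in EWT. It was 1.68-fold higher in EWT (adjusted p 4.7e-05), as it had been at 0 h. Summed enolase went from an EWT to CK ratio of 1.39 at 0 h to 0.903 at 3 h, with overlapping ranges at 3 h.

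Genes of sucrose and starch breakdown counted 34 higher in EWT and 11 in CK at 0 h, and 27 and 21 at 3 h, of 149 tested. The 3 h shares were 18.1% and 14.1%, both below those of all genes. Phosphoenolpyruvate and malate enzymes counted 40 and 15 at 0 h and 29 and 27 of 153 at 3 h (18.95% and 17.65%, close to the 19.5% and 17.8% of all genes). The shifts of these smaller lists were few, 2 toward EWT and 6 toward CK for the sugars and 4 and 10 for phosphoenolpyruvate and malate, none of these shares above those of all genes; without CK 3 h replicate 3 the sugar count toward CK was 11. Phosphoenolpyruvate carboxykinase evm_TU_scaffold_1217_113 had 261, 292, 167 and 257 in EWT and 142, 129.7, 191 and 171 in CK. EWT replicate 3 fell within the CK range, and adjusted p was 0.068, or 0.027 without that library.

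In ethylene synthesis, the leading ACC oxidase copies differed in opposite directions, by less than 2-fold. ACC oxidase makes ethylene from its precursor ACC, and its 31 genes summed to 3120 to 4407 in CK and 2727 to 3246 in EWT at 3 h, from means of 337 and 520 at 0 h. The copy evm_TU_scaffold_1340_15 (chromosome 2) had 2285, 1624, 1969 and 1653 in CK and 1036, 984, 1237 and 1161 in EWT. The copy evm_TU_scaffold_7093_110 (chromosome 3) had 961, 726, 894 and 653 in CK and 1285, 1138, 1301 and 1458 in EWT. In neither did the groups overlap (exact permutation p 0.0286, the smallest that 4 against 4 allow), and limma's adjusted p was 0.062 and 0.048. The value of 0.048 held without CK replicate 1 and was 0.053 to 0.131 without any other one of the 8 libraries. The value of 0.062 was 0.020 when only the groups compared were fitted. The lead of evm_TU_scaffold_7093_110 in EWT had been larger at 0 h, with a shift of -1.37 ± 0.39 toward CK (adjusted p 0.032, up to 0.097 with a library left out).

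Ethylene receptors were higher in CK at 3 h as a sum. The 15 genes summed to 299.9, 205, 281 and 268 in CK and 162, 168, 156 and 165 in EWT, without overlap, for means of 263 ± 41.0 and 163 ± 4.96 (SD, n = 4). At 0 h the means had been 32.6 and 40.6. Of 13 receptor genes tested, 3 were called higher in CK and 1 in EWT at 3 h. These were 23.1% and 7.69%, against 17.8% and 19.5% of all genes. The largest copy, evm_TU_scaffold_8967_29, made up 34.5% of the CK sum and 24.6% of the EWT sum. Over the whole list of ethylene synthesis and signalling, 37 of 168 genes tested were called higher in EWT and 23 in CK, against 34 and 24 at 0 h. The 3 h shares of this list were 22.0% and 13.7%, beside 19.5% and 17.8% of all genes. The members farthest apart had lesser levels. An EIN3-binding F-box 1 match, evm_TU_scaffold_733_49, had 7.07 to 10.2 in EWT and 2 fragments in all in CK, a count ratio of 339.9 (95% exact interval 93.8 to 2811). EIN2 match evm_TU_scaffold_11753_69 was 54.7-fold higher in CK.

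Among transcription factors, the ERF, DREB and TINY list turned from CK to EWT between 0 h and 3 h. Of 298 genes tested, 34 were called higher in EWT and 72 in CK at 0 h, whereas 71 were called higher in EWT and 32 in CK at 3 h. The 3 h shares were 23.8% and 10.7%, against 19.5% and 17.8% of all genes. The difference shifted toward EWT for 72 genes and toward CK for 16 (24.2% and 5.37%, against 6.59% and 7.24% of all genes), or 44 and 7 with adjusted p. Of the 72 genes that were higher in CK at 0 h, 25 were still called so at 3 h, 40 were called neither way and 7 were called higher in EWT. A further 44 genes were called higher in EWT at 3 h that had been called neither way at 0 h. The median shift of the list was 0.48 on the log2 scale, beside -0.07 over all genes tested.

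Single members spanned both directions. DREB1A match evm_TU_scaffold_692_102, the member with the highest mean, had 373, 443, 336 and 593 FPKM in EWT and 314, 233, 365 and 234 in CK (adjusted p 0.098), against 153 to 226 and 254 to 353 at 0 h. ERF025 match evm_TU_scaffold_566_73 was 33.9-fold higher in EWT (14.6, 20.4, 10.9 and 23.6 against 1.10, 0.455, 0.495 and 0), with adjusted p 1.6e-06. ERF091 match evm_TU_scaffold_1266_128 had 0.994 to 5.6 in CK and no fragment in EWT, at least 45.2-fold higher in CK. ERF071, given above, remained higher in CK.

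The TINY match with the highest level in EWT at 12 h, evm_TU_scaffold_5271_78, had 5 fragments in EWT and 5 in CK at 3 h (0 to 0.451 FPKM in EWT and 0 to 0.679 in CK) and was below the filter for testing. The genes that the study gave as possible targets of its TINY factor were all tested. In none of these 6 did the cultivars separate at 3 h, with limma adjusted p of 0.175 to 0.977 and unadjusted exact permutation p of 0.14 to 0.97. The gene evm_TU_scaffold_398_5, matched to the kinase CTR1 in the deposited annotation and to the kinase RAF6 in the study's text, had 15.8, 20.9, 13.2 and 17.5 FPKM in EWT and 16.8, 19.5, 12.8 and 19.0 in CK. A DREB1F match, evm_TU_scaffold_2838_17, had only 6 and 5 fragments.

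**Figure D3:**
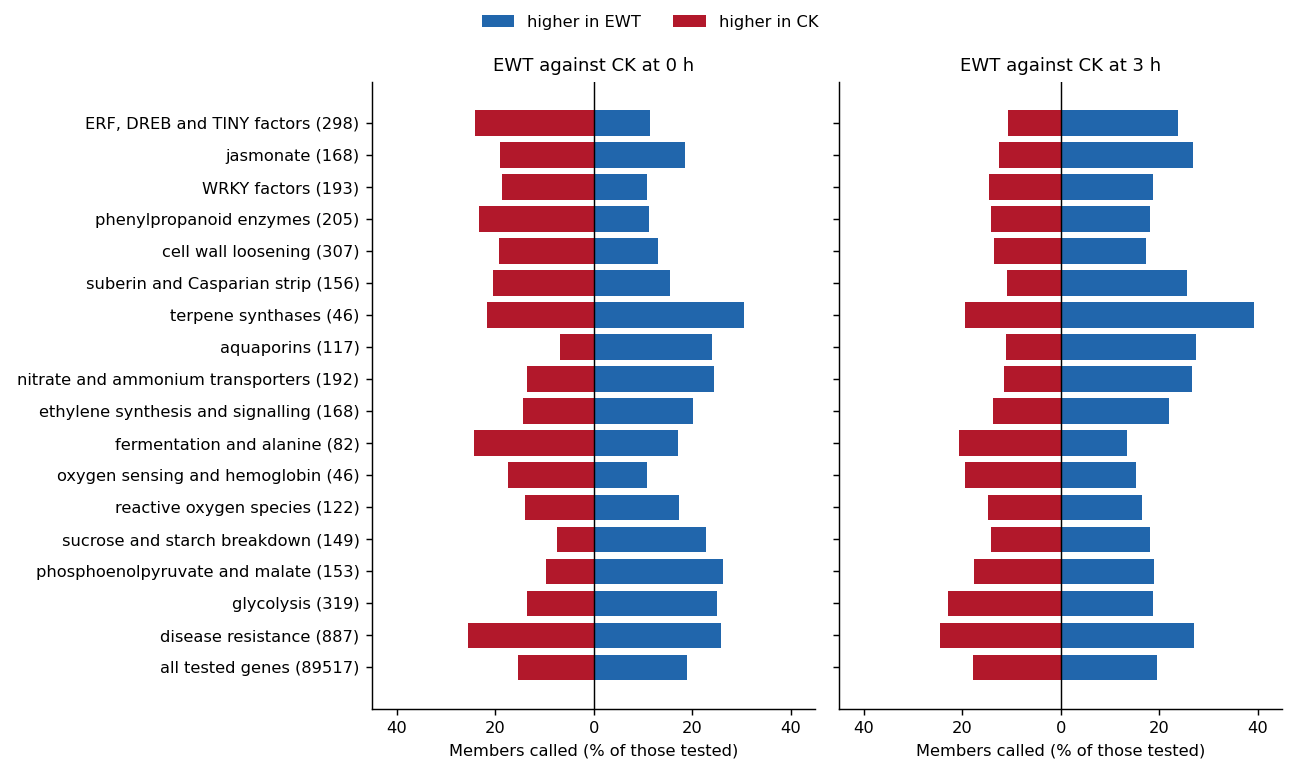
Share of tested members called higher in EWT (blue, to the right) or in CK (red, to the left) at 0 h (left panel) and 3 h (right panel) for 17 gene lists and all genes tested; numbers in brackets are genes tested. The ERF, DREB and TINY bar points to CK at 0 h (72 against 34 genes) and to EWT at 3 h (71 against 32).

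Jasmonate and phenylpropanoid genes also shifted toward EWT more often than toward CK. Jasmonate synthesis and repressor genes counted 31 higher in EWT and 32 in CK at 0 h, and 45 and 21 at 3 h, of 168 tested. The 3 h shares were 26.8% and 12.5%, against 19.5% and 17.8% of all genes. Shifts were called toward EWT for 37 and toward CK for 9 (22.0% and 5.36%, against 6.59% and 7.24% of all genes), or 15 and 0 with adjusted p, and the count of 9 was 5 without CK 0 h replicate 2. TIFY proteins, the repressors of jasmonate responses, summed to 284 to 468.5 FPKM in CK and 344 to 530 in EWT with overlap at 3 h, from means of 907 and 578 at 0 h. Of 46 TIFY genes tested, 20 were called higher in EWT and 3 in CK (43.5% and 6.52%, against 19.5% and 17.8% of all genes). Lipoxygenases, part of the jasmonate list, counted 11 and 10 of 56 (19.6% and 17.9%), near the shares of all genes.

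Phenylpropanoid enzymes, which supply lignin and phenolics, went from 23 higher in EWT and 48 in CK at 0 h to 37 and 29 at 3 h, of 205 tested. The 3 h shares, 18.05% and 14.15%, were below those of all genes. The shift was called toward EWT for 46 and toward CK for 14 (22.4% and 6.83%), or 22 and 7 with adjusted p. Phenylalanine ammonia-lyase, the entry enzyme, summed to 1203 to 1541 in CK and 1450 to 1959 in EWT at 3 h. For WRKY factors the counts were 21 and 36 of 193 at 0 h, and 36 and 28 at 3 h (18.65% and 14.5%, near the 19.5% and 17.8% of all genes). Their shifts were called toward EWT for 22 and toward CK for 8 (11.4% and 4.145%), or 9 and 3 with adjusted p. Over all genes the shift shares were 6.59% and 7.24%.

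Terpene synthases counted 18 of 46 higher in EWT and 9 in CK at 3 h, and 14 and 10 at 0 h. The 3 h shares were 39.1% and 19.6%, against 19.5% and 17.8% of all genes. One terpene synthase had the second largest shift toward EWT among named genes. The (E)-beta-farnesene synthase match evm_TU_scaffold_5290_103 (Artemisia annua, chromosome 18) had 27.2, 30.7, 35.0 and 30.4 in EWT and no fragment in CK at 3 h. At 0 h both cultivars had it, at 9.31 to 12.1 in EWT and 2.15 to 5.22 in CK. The level at 3 h was at least 215.5-fold higher in EWT, and the adjusted p of the shift was 4.1e-08.

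Cell wall loosening genes also shifted toward EWT. Of 307 tested, 40 were called higher in EWT and 59 in CK at 0 h, and 53 and 42 at 3 h. The 3 h shares were 17.3% and 13.7%, below the 19.5% and 17.8% of all genes. Shifts were called toward EWT for 52 and toward CK for 18 (16.9% and 5.86%, against 6.59% and 7.24% of all genes), or 33 and 4 with adjusted p. Xyloglucan endotransglucosylases cut and rejoin the xyloglucan that ties cellulose fibres together. Their 171 genes summed to 1457, 1205, 1669 and 1508 in CK and 1955, 2039, 1801 and 2100 in EWT at 3 h, without overlap. At 0 h the order was the opposite, with means of 1695 ± 199 in CK and 980.0 ± 66.0 in EWT (SD, n = 4).

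Expansins, which loosen walls without cutting them, summed to 748 to 1025 in CK and 1041 to 1258 in EWT, from means of 495 and 373 at 0 h. Of 50 tested, however, only 7 were called higher in EWT and 6 in CK. These were 14% and 12%, both below the 19.5% and 17.8% of all genes. The copy with the highest mean, Expansin-like B1 evm_TU_scaffold_10790_3, did not carry the higher sum in EWT, with 448 to 541 in EWT and 432 to 623 in CK (adjusted p 0.73). Xyloglucan endotransglucosylase 2 match evm_TU_scaffold_4534_21 had 472, 491, 588 and 576 in EWT and 484, 416, 478 and 436 in CK. It had been lower in EWT at 0 h (28.7 to 68.8 against 92.3 to 113), a shift of 1.46 ± 0.38 (adjusted p 0.016, or 0.056 without EWT 0 h replicate 3). Pectate lyases, at 62.6 to 74.3 in CK and 51.75 to 69.8 in EWT, overlapped.

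Aquaporins, the water channels, were called higher in EWT more often than in CK. Of 117 aquaporins tested, 32 were called higher in EWT and 13 in CK at 3 h (27.35% and 11.1%, against 19.5% and 17.8% of all genes), and 28 and 8 at 0 h. NIP channels, which carry small uncharged solutes such as boric and silicic acid, summed to 94.15, 93.1, 126.5 and 101 in CK and 236, 219.6, 267 and 219.8 in EWT, a ratio of 2.27. The ratio at 0 h was 1.25. NIP2-1 match evm_TU_scaffold_285_98 (maize, chromosome 3) accounted for part of it, with 47.3, 63.5, 67.1 and 43.0 in EWT and no fragment in CK, so at least 408-fold higher in EWT.

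PIP channels of the plasma membrane summed to 1283 to 1719 in CK and 1822 to 2784 in EWT. TIP channels, the class with the highest sum, overlapped, at 1847 to 3381 in CK and 1896 to 5481 in EWT. Both leading TIP1-1 copies of the vacuole membrane were low in EWT replicate 3. The copy evm_TU_scaffold_18_33 had 1364, 1355, 366 and 1593 in EWT and 645, 715, 1275 and 949 in CK. The copy evm_TU_scaffold_727_102 had 1323, 1276, 379.9 and 1557 in EWT and 324, 410.4, 708 and 521 in CK. Limma's adjusted p over all libraries was 0.56 and 0.0025, and without EWT replicate 3 it was 0.0092 for the former. The latter had adjusted p 0.11 when only the 8 libraries at 3 h were fitted.

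**Figure D4:**
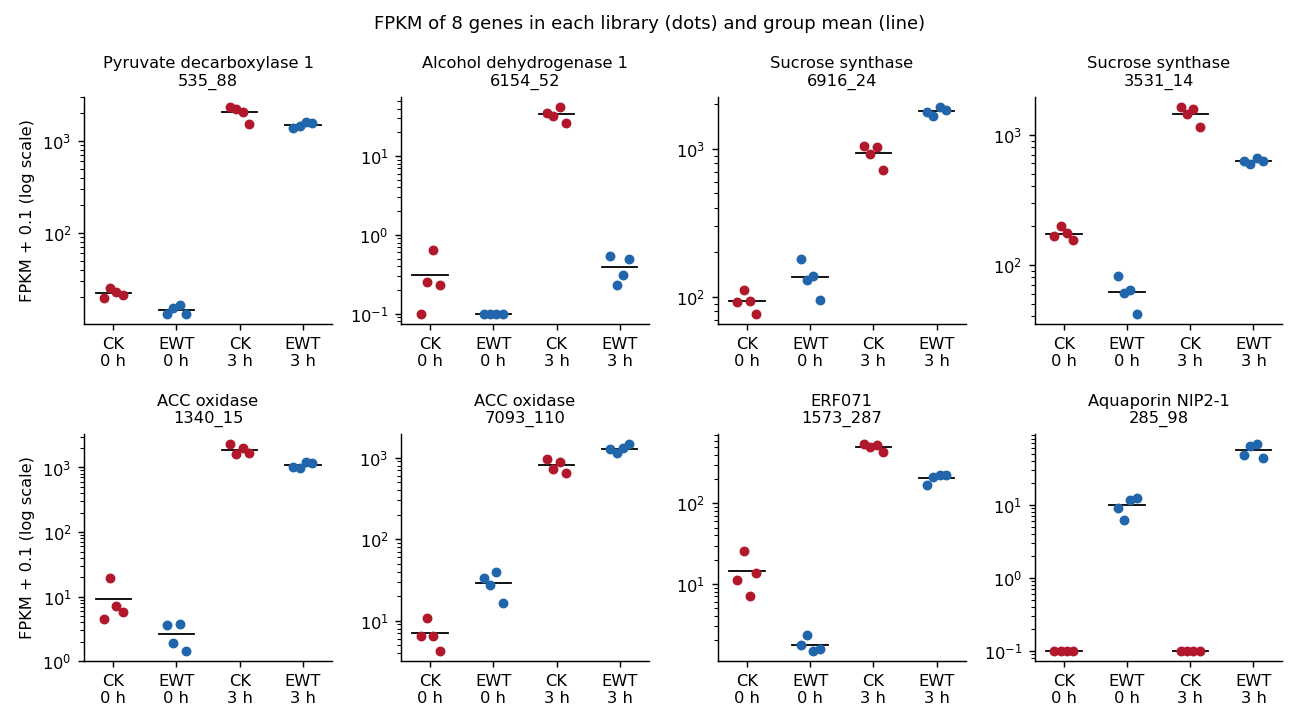
FPKM + 0.1 on a log axis of 8 genes in each library at 0 h and 3 h (dots, CK red, EWT blue), with the group mean as a line. Pyruvate decarboxylase 1 overlaps at 3 h, the sucrose synthase and ACC oxidase pairs differ in opposite directions, and aquaporin NIP2-1 had no fragment in CK.

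Suberin and Casparian strip genes seal the root against radial gas and water loss. Their list counted 40 of 156 higher in EWT and 17 in CK at 3 h, against 24 and 32 at 0 h. The 3 h shares were 25.6% and 10.9%, beside 19.5% and 17.8% of all genes. Casparian strip membrane proteins themselves counted 3 and 4 of 17 (17.65% and 23.5%), with 0 shifts called. Shifts of the whole list were called toward EWT for 21 and toward CK for 5, or 9 and 0 with adjusted p. These 21 and 5 were 13.5% and 3.21%, against 6.59% and 7.24% of all genes. Levels were modest, and the leading copy that differed, 3-ketoacyl-CoA synthase 11 evm_TU_scaffold_821_200, had 21.6 to 26.2 FPKM in EWT and 13.5 to 20.2 in CK. Its adjusted p of 0.029 became 0.051 to 0.085 without CK replicate 1, 2 or 4 or EWT replicate 1 or 3. Another copy, evm_TU_scaffold_733_115, was at least 237-fold higher in EWT. Nitrate and ammonium transporters counted 51 and 22 of 192 at 3 h (26.6% and 11.5%), and 47 and 26 at 0 h.

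Of the genes that handle reactive oxygen, 20 of 122 were called higher in EWT and 18 in CK (16.4% and 14.75%), both below the shares of all genes. Mitochondrial manganese superoxide dismutase evm_TU_scaffold_1659_209, which turns superoxide into hydrogen peroxide, had 1023, 940.2, 802 and 802 FPKM in CK and 427, 465, 547 and 507 in EWT. It was 1.83-fold higher in CK (log2 difference -0.87 ± 0.15, adjusted p 1.5e-05), and at 0 h it did not pass (38.9 to 44.4 and 26.0 to 48.2). The change of this difference from 0 h to 3 h did not pass either (limma adjusted p above 0.05), so no shift is claimed. Monodehydroascorbate reductase evm_TU_scaffold_1685_195, which regenerates ascorbate, had 353, 280.4, 415 and 314 in CK and 189.5, 164, 152 and 196 in EWT, 1.95-fold higher in CK. Its shift of -0.91 ± 0.25 toward CK had adjusted p 0.022, and 0.052 to 0.053 when CK 3 h replicate 3 or either of EWT 0 h replicates 1 and 2 was left out.

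Catalase was higher in EWT as a sum. Its 25 genes summed to 259.5 to 352 in CK and 366 to 518 in EWT at 3 h, without overlap. Of 14 tested, 4 were called higher in EWT and 0 in CK (28.6% and 0%, against 19.5% and 17.8% of all genes). Respiratory burst oxidases summed to 543 to 624 in CK and 419 to 582 in EWT, and alternative oxidases to 25.9 to 33.8 and 31.1 to 36.6.

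Disease resistance genes, the large family of intracellular immune receptors, were called in both directions. Of 887 tested, 240 were called higher in EWT (27.1%, against 19.5% of all genes) and 217 in CK (24.5%, against 17.8%), and 174 and 164 of these were called the same way at 0 h. TMV resistance protein N match evm_TU_scaffold_281_18 had 12.3 to 28.3 in EWT and no fragment in CK (at least 424-fold higher). Roq1 match evm_TU_scaffold_7218_27 had 8.06 to 14.3 in CK and no fragment in EWT (at least 551-fold higher). One member reversed between 0 h and 3 h: evm_TU_scaffold_329_264, a match to At5g66900, had 49.9, 81.5, 31.2 and 86.6 in EWT and 20.8, 22.0, 33.3 and 30.1 in CK at 3 h, but 12.9 to 19.6 and 36.9 to 56.2 at 0 h. Its shift was 2.77 ± 0.57 (adjusted p 0.0018), whereas its 3 h difference (adjusted p 0.022) did not pass without CK replicate 1 or 2 or EWT replicate 2 or 4 (0.057 to 0.088).

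Many genes had fragments in 1 cultivar alone at 3 h. In EWT 1248 genes reached at least 1 FPKM in all 4 libraries with no fragment in CK, and in CK 1253 did so with none in EWT. With a detection limit set at 3 fragments in the 4 libraries of the other cultivar, their levels were at least 23.0-fold (EWT) and 36.4-fold (CK) higher at the median. The choice of these genes fixes that they differ. Of the EWT genes, 771 (61.8%) also had no fragment in any of the 20 CK libraries. Of the CK genes, 108 had none in the 20 EWT libraries, and 826 (65.9%) had none once EWT 24_3 h replicates 1 and 2 were set aside. Whether a gene is missing from a cultivar, differs in sequence from the reference or is not expressed cannot be told apart from these values.

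The genes with the widest gaps at an FPKM of at least 20 were mostly of this kind. Tetraketide alpha-pyrone reductase 1 (evm_TU_scaffold_2310_31, chromosome 3, 221379960 to 221385621), an enzyme of pollen wall synthesis in Arabidopsis, had 153, 179, 124 and 175 in EWT and no fragment in CK. In the other direction, chloride channel CLC-d match evm_TU_scaffold_3309_2, a gene model of 178 bases, had 68.3, 102, 56.6 and 111 in CK and no fragment in EWT. Golgin candidate 5 match evm_TU_scaffold_1537_99 had 45.2 to 70.6 in CK and none in EWT (at least 2396-fold higher). Peroxidase 55, mitochondrial chaperonin CPN60, SENESCENCE-ASSOCIATED GENE 21 and a WD repeat protein matched only to cattle followed the same pattern, and all of these differed at 0 h as well.

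Early nodulin-93 was the exception. The gene evm_TU_scaffold_11210_234 (a soybean match, chromosome 1, 47207671 to 47208919) had no fragment in any of the 8 libraries at 0 h. At 3 h it had 234, 351, 393 and 384 FPKM in EWT, from 7977 fragments, and none in CK. The level in EWT was at least 1882-fold higher than the limit in CK, and the 20 CK libraries together held 3 fragments of it. In EWT it stayed high, with mean FPKM of 904 after 12 h of flooding, 509 after 24 h and 360.1 after reoxygenation.

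Other genes differed far more at 3 h than at 0 h. Serine carboxypeptidase-like 7 match evm_TU_scaffold_6567_27 had 97.2, 67.4, 73.0 and 88.5 in CK and 4.09, 2.11, 2.09 and 0.968 in EWT at 3 h, with at most 1.87 in any 0 h library. Its shift (adjusted p 0.00051) did not pass with a pseudocount of 0.01 (0.080). DNA helicase Q-like 3 match evm_TU_scaffold_463_143 had 23.3 to 43.3 in CK and 0.367 to 1.15 in EWT, and at most 2.98 at 0 h. Toward EWT, a gene matching delta-1-pyrroline-5-carboxylate synthase, the first enzyme of proline synthesis, went from 9.31 to 16.9 at 0 h to 49.4 to 64.9 at 3 h in EWT. In CK this gene (evm_TU_scaffold_364_68, 228 bases) had 1.52 to 4.05 at 0 h and 1 fragment at 3 h, for a count ratio of 378 (95% exact interval 67.6 to 14970).

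Differing genes were not spread evenly over the 27 chromosomes. The share called at 3 h ran from 32.7% on chromosome 26 to 42.3% on chromosome 24. Of the called genes, 67.4% were higher in EWT on chromosome 24, 66.6% on chromosome 11 and 65.7% on chromosome 10, but 34.6% on chromosome 13 and 34.9% on chromosome 19. At 0 h, in other libraries, these shares were 70.1%, 68.1%, 65.9%, 36.7% and 37.0%. Neighbours tended to share a direction: the next tested gene was called the same way for 31.0% of called genes, whereas 19.5% and 17.8% of all next genes were called higher in EWT and CK.

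**Figure D5:**
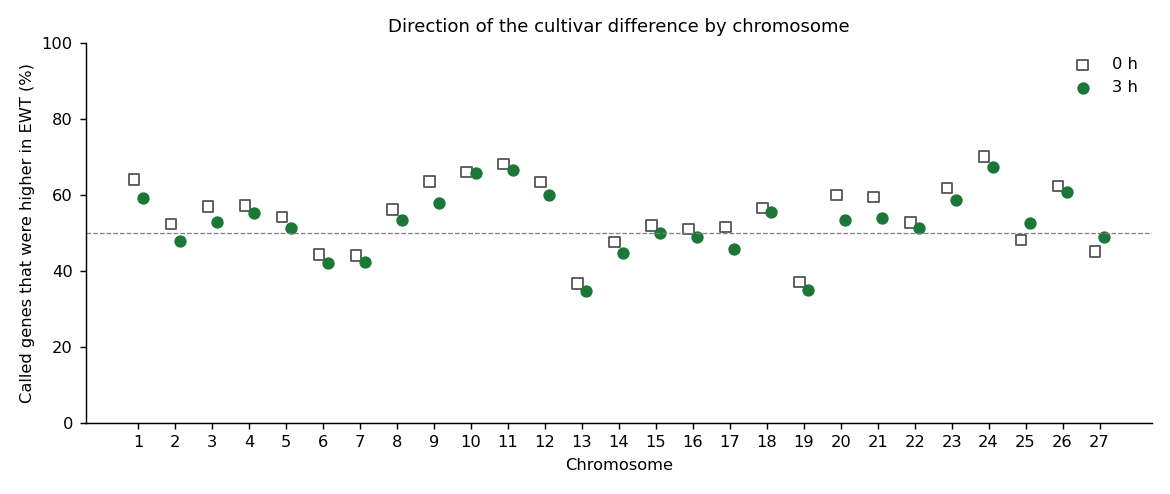
Share of called genes that were higher in EWT on each of the 27 chromosomes at 0 h (open squares) and 3 h (filled circles), with a dashed line at 50%. Chromosome 24 lies at 67.4% and chromosome 13 at 34.6% at 3 h, and each chromosome's 0 h and 3 h values lie close together.

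The longest run of neighbouring tested genes called the same way had 16 genes, all higher in CK, on chromosome 7 from 5429990 to 6555150. It held Roq1, DSC1 and RPS4 disease resistance matches and a cluster of F-box/kelch-repeat genes, and its median log2 difference was -2.89. The next runs, of 14 genes each, were also higher in CK, on chromosome 14 (201328678 to 201634602) and chromosome 16 (4209063 to 4708701). Positions are those of the deposited annotation, and neither the labels nor the methods name its build.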

How the data were processed

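Root RNA libraries made with poly(A) selection were sequenced in pairs on an Illumina Novaseq, 4 biological replicates for each of 10 groups. The authors cleaned reads (fastp), mapped them to the published chrysanthemum genome with HISAT2 2.0.5 and deposited FPKM for 178540 genes; the submitters' processing notes also name featureCounts 1.5.0-p3, and the authors compared groups with DESeq2. The genome build, the strand setting and the handling of reads shared by similar copies are not given in the sources used here. FPKM times gene length fell on whole fragments for 100% of the non-zero values (within 0.01 of a fragment), which gave the depths and the detection limits of 3 fragments. These limits and the exact binomial intervals (95%) cover counting error only.

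Genes with FPKM of at least 1 in at least 4 of 40 libraries (89517) were fitted with limma 3.58.1 in R 4.3.3 (trend, files read by the package data.table, version 1.17.8) on log2(FPKM + 0.1), with 1 mean per group and all 40 libraries sharing 1 estimate of spread. A fold change on this scale understates the change of low genes. Fold changes quoted as ratios are of mean FPKM. Exact permutation tests were two-sided (scipy 1.17.1). The fit was tested on simulated data. Further processing and plots used Python 3.11.15, numpy 2.4.6, pandas 2.3.3 and matplotlib 3.10.9. All 40 value columns matched a label, with 0 left unused.

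Genes were named by rule: the 5 largest differences in each direction (adjusted p at most 0.05, no overlap of groups, mean of at least 20 FPKM in the higher group), per main list the 2 highest members and the extreme in each direction, the 3 largest shifts in each direction, the TINY match and the 6 possible TINY targets. The comparison, the lists and the rule were chosen with earlier results of these data known. Pseudocount, filter, scaling, weights, spread, call rule, replicate block and left-out libraries were varied. Leaving EWT 24_3 h replicates 1 and 2 out of the spread was added after the data were seen. Same-numbered libraries did not deviate together, so replicate numbers were not used as pairs in the reported fit.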

Additional observations from a re-analysis of the deposited data

Results flagged for a closer look

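For 138 groups of 4 libraries, 1 library lying far from the other 3 was looked for, and 8 were found, where chance gives about 1 in 20, or 6.9. Values are FPKM at 3 h. In EWT, replicate 4 had 0.248 of Protodermal factor 1 (evm_TU_scaffold_286_22) and replicate 1 had 0.0895 of a superoxide dismutase (evm_TU_scaffold_1284_243), each from 1 fragment, against 0 in the others. EWT replicate 2 had 8.34 of pyruvate decarboxylase 4 (evm_TU_scaffold_964_55), against 4.68 to 5.21. EWT replicate 3 had 19.7 of glycerol-3-phosphate acyltransferase 9 (evm_TU_scaffold_4060_83), against 25.2 to 25.4. In CK, replicate 1 had 2.22 of a malic enzyme match outside the genome models on chromosome 16, against 20.3 to 23.8. CK replicate 4 had 1.19 of a xyloglucan endotransglucosylase (evm_TU_scaffold_969_197), against 0.234 to 0.283, and 0.6445 of delta-1-pyrroline-5-carboxylate synthase (evm_TU_scaffold_364_68), against 0. CK replicate 3 had 5.81 of the unnamed possible TINY target evm_TU_scaffold_10154_16, against 20.3 to 20.6.

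In 19 of 68 named genes tested, the cultivar difference changed between 0 h and 3 h (limma, adjusted p of at most 0.05 over all genes tested). Some of these genes were named for their shift and others for their 3 h difference, so the choice partly fixed this count. Of all 89517 genes tested, 2476 shifted toward EWT and 2041 toward CK by at least 2-fold with adjusted p. Changes in log2 units toward EWT were 11.7 for Early nodulin-93 (evm_TU_scaffold_11210_234), 6.72 for (E)-beta-farnesene synthase and 6.28 for delta-1-pyrroline-5-carboxylate synthase. They were 2.77 for the At5g66900 match (evm_TU_scaffold_329_264), 2.51 for aquaporin NIP2-1 and 2.23 for chaperonin CPN60 (evm_TU_scaffold_615_6). A glucose-6-phosphate isomerase match outside the genome models changed by 2.565, peroxidase 55 (evm_TU_scaffold_1622_361) by 1.98 and ERF071 by 1.63. The EIN3-binding F-box match changed by 1.525, the xyloglucan endotransglucosylase evm_TU_scaffold_4534_21 by 1.46 and alcohol dehydrogenase evm_TU_scaffold_1473_324 by 1.16. Changes toward CK were -5.37 for serine carboxypeptidase-like 7, -5.23 for a 21 kDa protein (evm_TU_scaffold_1139_37), -5.21 for DNA helicase Q-like 3 and -5.17 for alcohol dehydrogenase evm_TU_scaffold_6154_52. They were -3.80 for CLC-d, -1.37 for ACC oxidase evm_TU_scaffold_7093_110 and -0.91 for monodehydroascorbate reductase. Of these 19, 8 passed under every setting and with each library left out, 9 were lost under some setting and 6 with some library left out. Weights by vooma took NIP2-1, CPN60 and peroxidase 55 to adjusted p of 0.143, 0.184 and 0.089. The adjusted p of CLC-d (0.034) was above 0.05 without 12 of the 16 libraries (up to 0.069) and 0.26 with a pseudocount of 0.01. That of alcohol dehydrogenase evm_TU_scaffold_1473_324 (0.028) was up to 0.0896 with a library left out (CK 0 h replicate 2) and 0.21 with voom, and that of the EIN3-binding F-box match (0.035) up to 0.0997 and 0.23.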

How the results depend on the processing

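No named gene's called difference changed sign under the alternatives run, but the split of counts turned. EWT against CK at 3 h gave 16946 toward EWT and 16948 toward CK when scaled to all counted fragments, and 17892 and 18277 with voom. The change of the difference gave 4912 toward EWT and 4445 toward CK with a pseudocount of 1, against 5901 and 6484 as reported. When scaled to all counted fragments it gave 5252 toward EWT and 7728 toward CK, so counts of shifts depend on the scaling too. With a pseudocount of 1, calls were 18877 at 3 h (9534 toward EWT, 9343 toward CK) and 17963 at 0 h (9399 and 8564). Under a stricter 4-fold threshold they were 19325 at 3 h (9976 and 9349), 17410 at 0 h (9630 and 7780) and 5456 for the change of the difference (2450 and 3006). Adjusted p left 4517 changes (2476 and 2041) and 28.94% of next genes called the same way. Genes in 1 cultivar alone numbered 216 in EWT and 284 in CK at an FPKM of at least 5, and 2177 and 1996 at 0.5. Without each library in turn, calls were 31722 to 33083 at 3 h (16655 to 17212 toward EWT, 15067 to 15871 toward CK), 29321 to 29985 at 0 h and 11140 to 13333 for the change; genes in 1 cultivar alone were 1349 to 1422 and 1344 to 1489. Deviations of CK and EWT libraries of any numbers correlated between -0.08 and 0.09, so the numbers did not pair them, and a replicate block gave 33364 calls at 3 h. Of the named genes' tests with adjusted p of at most 0.05, 23 were lost under other settings and 647 kept, and of those above it 32 were gained and 656 stayed above. With a library left out these counts were 55 and 633, and 12 and 932. Counts of the gene lists were labelled as moved in 244 cases and as the same in 716 under other settings. With a library left out, 50 list counts were labelled as moved and 1390 as the same. Whether sequence differences from the reference moved these values was not tested. CK libraries were shallower than EWT libraries, which limits genes of low level most in CK.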

Other observations

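The other gene lists are given by their counts at 3 h, higher in EWT and then in CK, beside 19.5% and 17.8% of all genes. Heat stress factors counted 15 and 5 of 53 (28.3% and 9.43%), cytochromes P450 98 and 68 of 389 (25.2% and 17.5%) and transposon proteins 51 and 46 of 199 (25.6% and 23.1%). Class III peroxidases counted 39 and 21 of 187 (20.9% and 11.2%) and abscisic acid genes 69 and 47 of 328 (21.0% and 14.3%). Receptor kinases counted 315 and 378 of 1691 (18.6% and 22.35%) and circadian clock genes 7 and 15 of 79 (8.86% and 19.0%). Heat shock proteins counted 108 and 104 of 527 (20.5% and 19.7%) and glutathione S-transferases 26 and 25 of 138 (18.8% and 18.1%). Cytosolic ribosomal proteins counted 114 and 125 of 785 (14.5% and 15.9%) and auxin genes 44 and 35 of 254 (17.3% and 13.8%). Gibberellin genes counted 15 and 12 of 94 (15.96% and 12.8%) and photosynthesis genes 18 and 10 of 116 (15.5% and 8.62%).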
